A study of Mus musculus with 5 samples.

Results

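The 10 genes described here, H19, Meg3, Dlk1, Peg3, Mest, Grb10, Plagl1, Ndn, Peg10 and Sgce, are imprinted genes of the mouse, most of them known as regulators of growth. They were chosen by name as imprinted genes, with earlier results of these data known, and found by matching Ensembl gene IDs to GENCODE M21 symbols. All 10 were found among the 55335 gene IDs of the count table, and all 10 passed the filter on low counts. The RNA came from primary fibroblasts isolated from mouse lung and grown in culture. The cells of 3 libraries had received TGF-β1 (5 ng/mL, 24 h), and those of 2 libraries had received vehicle. No engineered allele was named for either group. The sources used here do not state the strain, sex, age or number of the mice. The series calls the samples biological replicates without saying whether each came from its own animal or its own culture. The p-values below therefore rest on how far these 5 libraries spread, which may be technical.

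An imprinted gene is transcribed mainly from the copy inherited from 1 parent, which is marked by DNA methylation laid down in the germ line. Imprinted genes lie in clusters that share a control region, and many of them are highly active in fetal and placental growth and are turned down after birth. Outside the brain, H19, Meg3 and Grb10 are known to be read mainly from the maternal copy and Dlk1, Peg3, Mest, Plagl1, Ndn, Peg10 and Sgce from the paternal copy. Counts per gene do not tell the parental copies apart, so nothing below bears on imprinting itself.

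Library totals ran from 34283288 to 43163967 counts, and log2 CPM (counts scaled by library size) correlated at 0.987 to 0.989 inside a group and at 0.958 to 0.960 across groups. All 7 fibroblast markers examined had counts, among them Col1a1, Col1a2, Pdgfrb and Thy1, whereas the epithelial markers Sftpc, Sftpb, Scgb1a1 and Nkx2-1 and the T cell marker Cd3e were at 0 in every library. Other epithelial markers were present: Krt8 averaged 35.5 CPM in the controls and 34.6 CPM with TGF-β1. Cdh1, which was higher, averaged 2.03 and 3.92 CPM, and Ager 1.19 and 1.28 CPM. Epcam had 2 counts, in TGF-β1 replicate 3 alone. The summed level of 8 mesothelial markers was 1386 to 1471 CPM in the controls and 167.9 to 187 CPM with TGF-β1, and all 8 were lower. The summed level of 7 leukocyte markers was 2370 to 2447 CPM in the controls and 1430 to 1461 CPM with TGF-β1. Of the 6 tested, 5 were lower and 1 was higher. Lyz2 alone made up most of that sum, with means of 1994.5 CPM in the controls and 1136.7 CPM with TGF-β1. The higher one was Ptprc, a general leukocyte marker, with means of 26.4 and 32.3 CPM. The summed fibroblast markers were 21310 to 22200 CPM in the controls and 28570 to 28850 CPM with TGF-β1, with 3 higher and 4 lower. Col1a1 and Col1a2 made up most of that sum and were higher, as was Pdgfrb. Pdgfra, Dcn, Lum and Thy1 were lower, with log2 fold changes of -2.02, -1.90, -2.23 and -0.93. Pericyte and smooth muscle markers summed to 1967 to 2031 and 1532 to 1579 CPM (2 higher and 4 lower of 7 tested), epithelial markers to 37.0 to 40.5 and 38.3 to 42.5 CPM (1 higher of 3) and endothelial markers to 4.16 to 4.95 and 3.08 to 4.4 CPM (0 of 5 called, also at an unadjusted p under 0.05). The part of these shifts in the results below was not tested, and in bulk RNA fewer cells of a type and less RNA per cell cannot be told apart.

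Sequences next to the start sites of 3 of the genes are shown, those with the lowest adjusted p of the 10 in the test given below. By size of change, Meg3 (log2 fold change 0.29) came after Plagl1 (0.53) and Ndn (-0.48). The sequences come from RefSeq on GRCm38.p6 and run 5′ to 3′. They are in lower case with every CpG, the dinucleotide that is methylated in imprint control regions, in capitals. Peg3 and Usp29 start 147 bp apart and are read away from each other, and the 146 bases between the starts (chr7:6730432-6730577, read on the minus strand as Peg3 is) hold 5 CpG and are 61.6% G or C.
Peg3 and Usp29, between the starts: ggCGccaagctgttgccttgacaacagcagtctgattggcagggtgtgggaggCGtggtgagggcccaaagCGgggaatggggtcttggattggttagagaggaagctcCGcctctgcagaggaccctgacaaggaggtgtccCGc
The Meg3 sequence is the 250 bases before the first listed start (chr12:109540746-109540995, plus strand), with 10 CpG.
Meg3, before the start: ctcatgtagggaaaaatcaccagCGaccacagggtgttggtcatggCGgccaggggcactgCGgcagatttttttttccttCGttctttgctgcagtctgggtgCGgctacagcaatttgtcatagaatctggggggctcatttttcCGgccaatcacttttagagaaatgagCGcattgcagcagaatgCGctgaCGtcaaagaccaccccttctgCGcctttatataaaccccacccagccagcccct
The Grb10 sequence is the 250 bases before one of 2 listed starts (chr11:12037421-12037670, minus strand), with 40 CpG and 81.2% G or C.
Grb10, before the start: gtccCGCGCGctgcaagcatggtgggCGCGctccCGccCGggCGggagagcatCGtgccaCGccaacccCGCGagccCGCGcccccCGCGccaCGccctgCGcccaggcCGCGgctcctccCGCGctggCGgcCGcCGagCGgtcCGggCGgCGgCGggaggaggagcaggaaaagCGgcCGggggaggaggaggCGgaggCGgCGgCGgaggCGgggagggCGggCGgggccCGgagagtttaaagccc

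Of 32851 windows of 250 bases before a start in the same table, the median held 6 CpG. The 7 genes found in that table had 11 such windows. CAGAC, the letters of the box bound by SMAD proteins that carry the TGF-β signal, was searched on both strands, and 42.2% of all windows held it. It was in 4 of the 11 windows, those of Meg3, Dlk1 and Peg3, and in neither Grb10 window. TGCCGC, the letters of the motif of ZFP57 in its unmethylated form, was searched on both strands and always contains a CpG. It was in 8.68% of all windows and in 4 of the 11, of Meg3, Mest and Plagl1; the 2 of Mest start 3 bases apart and are nearly the same sequence. These are matches of letters and not binding sites.

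The comparison asked how these genes differed after 24 h of TGF-β1. Of the 10 genes, 2 rose (Meg3 and Plagl1), 3 fell (Peg3, Grb10 and Ndn) and 5 did not pass an adjusted p of 0.05 (H19, Dlk1, Mest, Peg10 and Sgce). That is 50% of the genes, against 44.5% of the 16380 genes tested in the same fit, so the share is close to the background. In this fit 21.3% of all genes were higher and 23.2% were lower. With libraries scaled by their totals alone, which moves the median of all genes by -0.10 on the log2 scale, the higher share of all calls was 32.1% in place of 47.9%, and all 10 genes kept their direction. Peg3 was the 1 gene of the 10 that changed at least 2-fold. The median log2 fold change of the 10 was -0.09, and the median absolute change was 0.39 against 0.28 over all genes tested. The 3 TGF-β1 libraries lay to 1 side of both controls for the 5 genes that passed and overlapped the controls for the other 5, where 64.6% of all tested genes did not overlap. Adjusted p-values are from edgeR's quasi-likelihood test over all 16380 genes, and levels are TMM-scaled CPM with mean ± SD (n = 2 for control, n = 3 for TGF-β1).

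**Figure D1:**
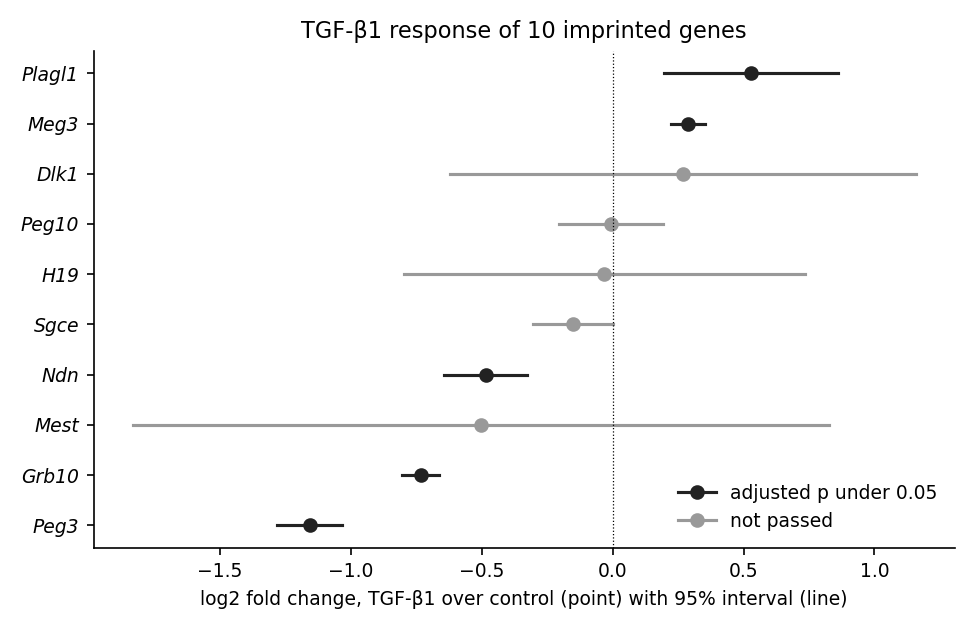
Log2 fold change of each of the 10 genes, TGF-β1 over control, as points with 95% intervals as lines, and black where the adjusted p was under 0.05. Peg3 (-1.16) and Grb10 (-0.73) lie farthest to the left with narrow intervals, and the intervals of Mest, Dlk1 and H19, the 3 genes with the fewest counts, are the widest.

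The levels of the genes spanned a wide range. Per kilobase of exon, Grb10 was highest in the controls at 45.7 ± 0.58 CPM and Meg3 followed at 30.3 ± 1.12 CPM. Ndn stood at 11.7 ± 0.47 and Peg3 at 5.88 ± 0.015 CPM per kilobase. Sgce (4.59 ± 0.42) and Peg10 (4.57 ± 0.35) did not differ beyond their spread on this scale, nor did H19 (0.987 ± 0.22) and Plagl1 (0.909 ± 0.081). Dlk1 (0.106 ± 0.025) and Mest (0.0772 ± 0.019) were lowest and also within their spread of each other. With TGF-β1, Meg3 at 37.0 ± 0.26 CPM per kilobase lay above Grb10 at 27.5 ± 0.76. On this length the order of the highest 2 was thus exchanged. Dividing by the longest transcript instead put Sgce (11.03) above Peg3 (9.02) and Plagl1 (1.35) above H19 (1.06) in the controls, and left the other places as they were. By that length Grb10 (82.06) stood farther above Meg3 (37.62) in the controls and stayed above Meg3 with TGF-β1, so the exchange depends on the length used.

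**Figure D2:**
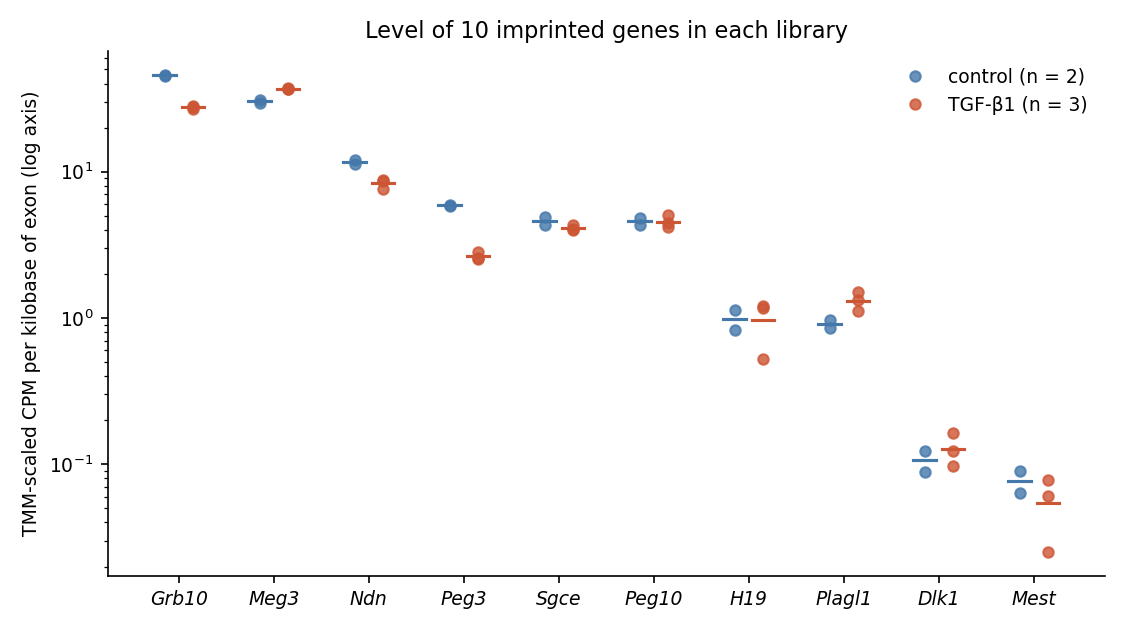
TMM-scaled CPM per kilobase of exon (log axis) of the 10 genes in each library, with points for the 2 control and 3 TGF-β1 libraries and bars for the group means. Grb10, Ndn and Peg3 have all TGF-β1 points below both controls, Meg3 and Plagl1 have them above, and the levels run from 45.7 CPM per kilobase for Grb10 to 0.0772 for Mest in the controls.

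Grb10 (ENSMUSG00000020176; mm10 chromosome 11, 11930508 to 12038683, minus strand) encodes an adaptor protein that binds the insulin and IGF1 receptors and dampens their signal. Its level was 419 and 412 CPM in the 2 control libraries and 257, 249.8 and 243 CPM in the 3 TGF-β1 libraries. Every TGF-β1 library was thus well below both controls, and the libraries of a group lay close together. The mean fell from 415 ± 5.26 to 249.9 ± 6.86 CPM, which was 1.66-fold lower (log2 fold change -0.73, SE 0.032, adjusted p = 1.31e-07). The 95% interval of the log2 fold change was -0.80 to -0.66. This gene and Peg3 were the 2 of the 10 whose change also passed a test against 1.5-fold, a threshold that 10.9% of all genes passed.

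Grb10 was described beside 28 genes of the insulin and IGF receptor pathway. Of the 27 tested, 8 rose, 11 fell and 8 did not pass, so 70.4% were called against 44.5% of all genes. The median log2 fold change was -0.03 against 0 for all genes to 2 decimals. The median absolute change was 0.17, smaller than the 0.28 over all genes tested. With library totals 3 rose, and without control replicate 2 the number was 5. Grb14, the gene of a related receptor adaptor, fell from 9.58 and 9.06 CPM to 4.47, 3.09 and 3.88 CPM (log2 fold change -1.29, SE 0.16, adjusted p = 0.000178). Pik3r1, the regulatory subunit of PI 3-kinase, fell by 0.78 on the log2 scale and Irs1, the receptor substrate, also fell by 0.78. Igf1, the growth factor itself, fell from 232 and 227 CPM to 141, 134 and 135 CPM (log2 fold change -0.74, SE 0.036). Of the receptor genes, Igf1r fell by 0.16 on the log2 scale (adjusted p = 0.0137) and Insr did not pass (0.10, and 0.00 to 2 decimals with library totals). The Igf1r call was lost without any 1 of control replicates 1 and 2 and TGF-β1 replicates 1 and 2 (adjusted p from 0.0534 to 0.0923). Among the genes that rose, the mTORC1 activator Rheb (log2 fold change 0.69) and the translation repressor Eif4ebp1 (0.55) are named after their values were seen.

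Peg3 (ENSMUSG00000002265; chromosome 7, 6703892 to 6730431, minus strand) encodes a large zinc finger protein of the nucleus. It was at 78.3 and 78.5 CPM in the controls and at 34.2, 33.9 and 37.4 CPM with TGF-β1. The groups were far apart compared with the distances within each. The mean fell from 78.4 ± 0.20 to 35.2 ± 1.94 CPM, 2.23-fold lower (log2 fold change -1.16, SE 0.055, adjusted p = 2.63e-07). In absolute size this change exceeded that of 89.2% of all genes tested.

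The neighbours of Peg3 in its imprinted cluster were lower too. Usp29, a ubiquitin protease gene that shares the start region printed above, was at 0.927 and 1.69 CPM in the controls and at 0.547, 0.643 and 0.569 CPM with TGF-β1 (log2 fold change -1.16, SE 0.35, adjusted p = 0.0231). The controls differed from each other by more than the lower control differed from the TGF-β1 libraries, and the call was lost without control replicate 2 (log2 fold change -0.66, adjusted p = 0.299) and without TGF-β1 replicate 1 (adjusted p = 0.0572). Zim1, an imprinted zinc finger gene that starts 33.98 kb from Peg3 and is known to be read from the maternal copy, was at 6.12 and 5.54 CPM in the controls and at 1.29, 0.976 and 1.29 CPM with TGF-β1. It fell by 2.29 on the log2 scale (SE 0.19, adjusted p = 1.12e-05), a larger fitted change than that of Peg3, and is named after its values were seen. The other 9 of the 11 tested genes with a start within 500 kb of Peg3, all of them beyond the distance of Zim1, did not pass. Among all genes tested, 44.5% passed and 23.2% were lower. The ratio of Peg3 to Usp29 per kilobase was 114 and 63.1 in the controls and 84.8, 71.7 and 89.2 with TGF-β1, so the groups overlapped (difference of mean log2 ratios -0.06, exact permutation p = 1, two-sided).

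**Figure D3:**
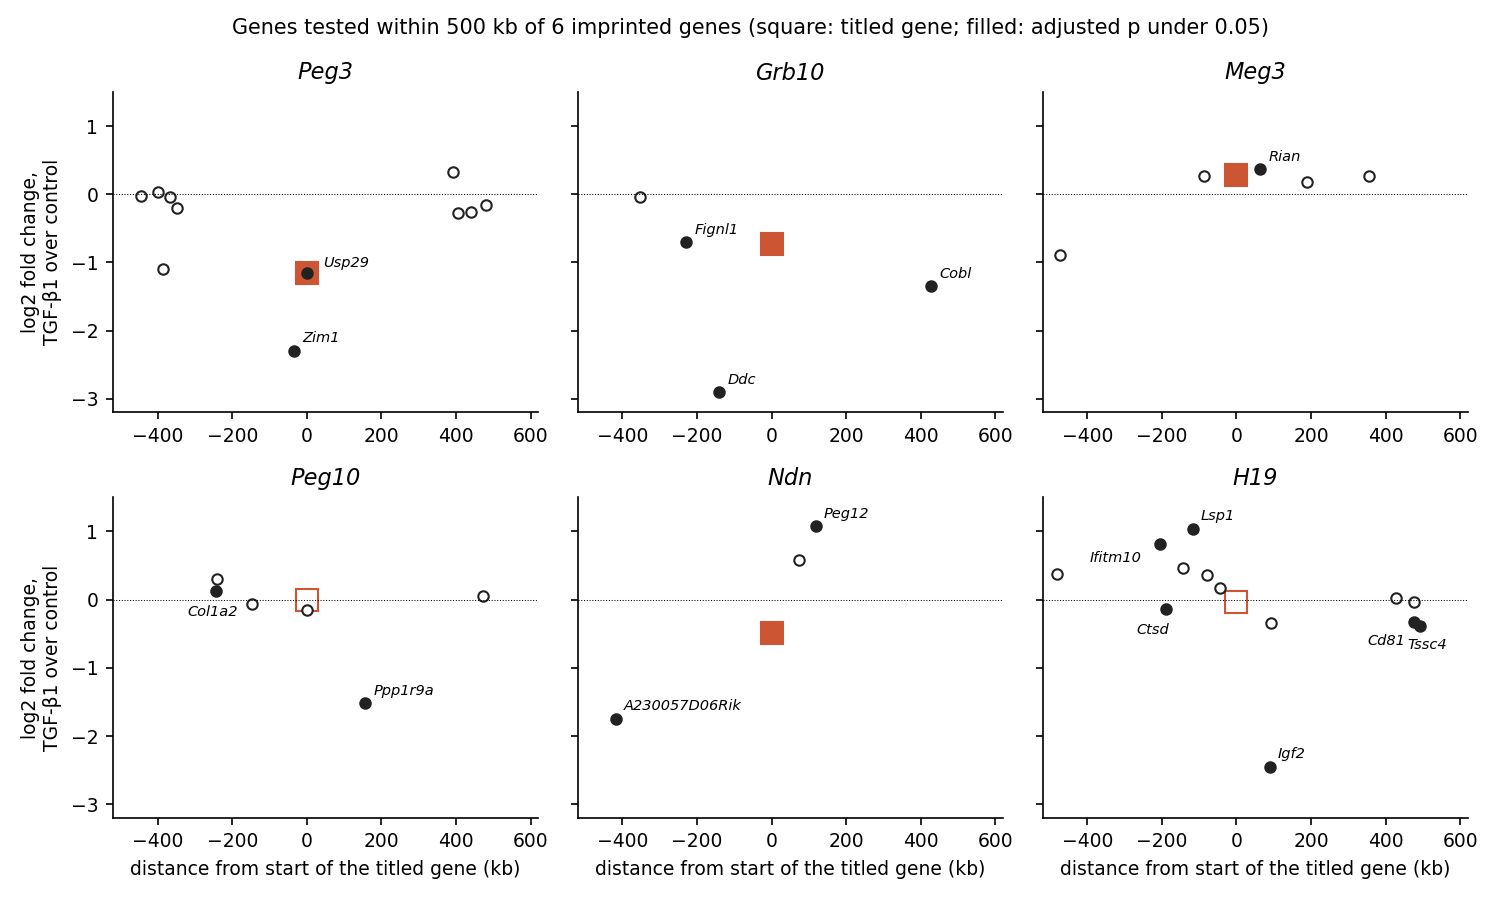
Log2 fold change, TGF-β1 over control, of the tested genes with a start within 500 kb of 6 of the genes, by distance from the start of the titled gene in kb, which is drawn as a square; filled symbols have an adjusted p under 0.05. Zim1 and Usp29 lie with or below Peg3, Ddc and Cobl lie below Grb10, and Rian lies beside Meg3.

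At the Grb10 locus, 3 of the only 4 tested genes within 500 kb of its start were lower, against 23.2% of all genes tested. Ddc, the aromatic amino acid decarboxylase gene, is the nearest at 140.5 kb and averaged 1.88 ± 0.36 CPM in the controls but 0.253 ± 0.23 CPM with TGF-β1 (log2 fold change -2.90, adjusted p = 0.0022). Fignl1 fell by 0.70 on the log2 scale; both were named after their values were seen. Cobl, an actin nucleator gene 426 kb away, fell from 15.9 ± 0.43 to 6.24 ± 0.32 CPM (log2 fold change -1.35, adjusted p = 5.01e-06). Ikzf1, a lymphoid transcription factor gene that lies between Fignl1 and the far edge of that window, was at 7.93 ± 0.73 and 7.70 ± 0.93 CPM and did not pass.

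Ndn (ENSMUSG00000033585; chromosome 7, 62346569 to 62350262, plus strand) encodes necdin, a growth-suppressing protein of the MAGE family. It was at 41.9 and 44.3 CPM in the controls and at 32.0, 28.3 and 32.2 CPM with TGF-β1. All 3 TGF-β1 libraries were below both controls. The mean fell from 43.1 ± 1.73 to 30.8 ± 2.20 CPM, 1.40-fold lower (log2 fold change -0.48, SE 0.069, adjusted p = 0.000397). Of the 3 tested genes with a start within 500 kb of Ndn, 1 rose, 1 fell and 1 did not pass, all 3 named after their values were seen. Among all genes tested, 21.3% rose and 23.2% fell. Peg12, 118 kb from Ndn, rose from 2.71 ± 0.70 to 5.70 ± 0.57 CPM (log2 fold change 1.08, adjusted p = 0.00159), and Mkrn3 (0.620 ± 0.036 and 0.924 ± 0.11 CPM) did not pass. The third, the non-coding A230057D06Rik, fell by 1.75 on the log2 scale and lost its call without control replicate 1 (adjusted p = 0.153). Snrpn, which encodes a splicing protein and belongs to the same region beyond the 500 kb window, rose from 15.6 and 14.8 CPM to 20.1, 19.6 and 18.05 CPM (log2 fold change 0.34, adjusted p = 0.00812), and without control replicate 2 its adjusted p was 0.0702.

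Meg3 (ENSMUSG00000021268; chromosome 12, 109541001 to 109571726, plus strand) is a long non-coding RNA. It was at 561 and 533 CPM in the controls and at 664, 674 and 668 CPM with TGF-β1. The TGF-β1 libraries lay above both controls and differed less among themselves than the controls did. The mean rose from 547 ± 20.2 to 668 ± 4.75 CPM, 1.22-fold higher (log2 fold change 0.29, SE 0.028, adjusted p = 3.24e-05). The 95% interval of 0.22 to 0.35 on the log2 scale lies wholly under 1.5-fold.

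Meg3 begins a run of non-coding RNAs read from the same strand. Rian, which hosts small nucleolar RNAs and starts 62.9 kb downstream, was at 448 and 453 CPM in the controls and at 573, 590 and 581 CPM with TGF-β1 (log2 fold change 0.37, SE 0.026, adjusted p = 3.11e-06). The groups were clearly apart, as for Meg3. Mirg, a microRNA host 189 kb from Meg3 and named after its values were seen, was at 18.5 and 17.7 CPM in the controls and at 19.7, 20.8 and 21.0 CPM with TGF-β1, and with an adjusted p of 0.0764 it did not pass. The ratio of Meg3 to Rian per kilobase was 1.26 and 1.19 in the controls and 1.17, 1.15 and 1.16 with TGF-β1. The TGF-β1 ratios were below both controls by little (difference of mean log2 ratios -0.08, exact permutation p = 0.1, the smallest p that 2 against 3 libraries allow, and 0.4 adjusted over 4 pairs of genes).

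Dlk1 (ENSMUSG00000040856; chromosome 12, 109452823 to 109463336, plus strand), the paternally read partner of Meg3 at 88.2 kb, encodes a membrane protein that holds back fat cell differentiation. It had counts of 25 and 21 in the control libraries and of 37, 23 and 27 in the TGF-β1 libraries, or 0.499 to 0.702 and 0.547 to 0.920 CPM. The groups overlapped (log2 fold change 0.27, 95% interval -0.62 to 1.16, adjusted p = 0.619; 0.53 without control replicate 1 and 0.039 without control replicate 2), and the interval still holds a 1.5-fold change in either direction. Per kilobase Dlk1 stood at 0.0030 to 0.0040 of Meg3 in the controls and at 0.0026 to 0.0044 with TGF-β1, which also overlapped (difference of mean log2 ratios -0.04, exact permutation p = 0.9). Begain, the gene on the far side of Dlk1, named after its values were seen, fell short of the threshold (log2 fold change -0.89, adjusted p = 0.0503) and passed it under 5 of the 14 alternative settings.

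H19 (ENSMUSG00000000031; chromosome 7, 142575529 to 142578143, minus strand), a long non-coding RNA that is abundant in fetal tissue, was scarce here. Its counts were 73 and 118 in the control libraries and 120, 120 and 50 in the TGF-β1 libraries, or 2.05 and 2.81 against 2.98, 2.86 and 1.29 CPM. The lowest value of all belonged to a TGF-β1 library, as did the highest. No difference was detectable (log2 fold change -0.03, 95% interval -0.80 to 0.73, adjusted p = 0.95), and without TGF-β1 replicate 3 the fitted change was 0.26 (adjusted p = 0.389). An exact Poisson 95% interval for that 1 library's 50 counts runs from 37.1 to 65.9, and for the 120 counts of each other TGF-β1 library from 99.5 to 143, for counting error only. These intervals do not overlap, so the TGF-β1 libraries differed in H19 by more than counting error.

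H19 and Meg3 both carry microRNAs, whose mature forms these polyA libraries do not measure. The 5p arms are given with the seed, bases 2 to 8, in capitals to show that the host RNAs lead to different seeds.
miR-675-5p (H19): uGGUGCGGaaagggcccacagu
miR-770-5p (Meg3): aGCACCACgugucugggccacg

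Igf2, the fetal growth factor gene that shares enhancers with H19 and starts 88.7 kb away, was near the limit of the data. Its counts were 27 and 79 in the control libraries and 22, 1 and 6 in the TGF-β1 libraries. The 2 controls differed by about as much CPM as the group means did, and TGF-β1 replicate 1 lay close to control replicate 1. It fell by 2.45 on the log2 scale (SE 0.76, adjusted p = 0.0273), but the call was lost without control replicate 2 (log2 fold change -1.64, adjusted p = 0.295) and with no filter on low counts (adjusted p = 0.0745). Its exons also overlap those of Gm49394 on the same strand, with 0.511 as many counts, so its value is uncertain. Of the 13 tested genes within 500 kb of H19, 2 were higher and 4 were lower, against 21.3% and 23.2% of all genes tested. The higher ones were Lsp1, a leukocyte-associated actin-binding protein gene that rose from 66.3 ± 4.82 to 136 ± 2.98 CPM (log2 fold change 1.04, adjusted p = 3.35e-07), and Ifitm10 (0.82). The lower ones were Igf2, Ctsd (-0.13), Cd81 (-0.33) and Tssc4 (-0.39); Ifitm10, Ctsd and Cd81 are named after their values were seen.

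Plagl1 (ENSMUSG00000019817; chromosome 10, 13060504 to 13131694, plus strand) encodes a zinc finger transcription factor that restrains proliferation and is known to regulate other imprinted genes. It was at 7.56 and 6.66 CPM in the controls and at 10.4, 8.66 and 11.7 CPM with TGF-β1. The lowest TGF-β1 library was nearer to the higher control than to the highest TGF-β1 library. The mean rose from 7.11 ± 0.63 to 10.3 ± 1.53 CPM, 1.44-fold higher (log2 fold change 0.53, SE 0.15, adjusted p = 0.0158). Without control replicate 2 the call was lost (log2 fold change 0.44, adjusted p = 0.125). Of the 8 tested genes within 500 kb, 2 rose and 2 fell, against 21.3% and 23.2% of all genes tested. Sf3b5 rose by 0.28 and Ltv1 by 0.29 on the log2 scale, and Stx11 (-0.44) and Phactr2 (-0.48) fell. Stx11 lost its call without control replicate 1 (adjusted p = 0.149) and without TGF-β1 replicate 1 or 2, and of these 4 only Phactr2 was not chosen after the values were seen.

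Peg10 (ENSMUSG00000092035; chromosome 6, 4747306 to 4760517, plus strand), a gene derived from a retrotransposon that the placenta requires, was at 32.1 and 28.8 CPM in the controls and at 27.9, 29.6 and 33.6 CPM with TGF-β1. The TGF-β1 libraries enclosed the controls on both sides. The mean was 30.5 ± 2.31 and 30.3 ± 2.93 CPM (log2 fold change -0.01, 95% interval -0.20 to 0.19, adjusted p = 0.968), so the interval leaves room for a change of less than 1.2-fold in either direction.

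Sgce (ENSMUSG00000004631; chromosome 6, 4674350 to 4747207, minus strand) encodes epsilon-sarcoglycan, a membrane protein of the dystrophin complex, and starts 99 bp from Peg10 on the other strand. It was at 51.9 and 45.6 CPM in the controls and at 43.1, 42.5 and 46.1 CPM with TGF-β1. TGF-β1 replicate 3 lay above control replicate 2, so the groups overlapped. The log2 fold change was -0.15 (SE 0.068, 95% interval -0.30 to 0.0035, adjusted p = 0.105). This gene was the 1 of the 10 that sat near the threshold from the other side: it was called lower with library totals (-0.25, adjusted p = 0.0132), without control replicate 2 (-0.24, adjusted p = 0.0407), without TGF-β1 replicate 3 (-0.19, adjusted p = 0.0366) and with the replicate number as a block (-0.18, adjusted p = 0.027).

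The ratio of Peg10 to Sgce per kilobase was 0.985 and 1.01 in the controls and 1.03, 1.11 and 1.16 with TGF-β1. By the longest transcript, Peg10 stood at 4.57 and Sgce at 11.03 CPM per kilobase in the controls, so the near-equal levels depend on the length used. All 3 TGF-β1 ratios were above both controls, by 0.14 in mean log2 ratio (exact permutation p = 0.2, 0.4 adjusted over the 4 pairs), which does not pass. At the same cluster Ppp1r9a, a neuronal actin-binding protein gene 156 kb from Peg10, fell from 9.78 ± 0.35 to 3.41 ± 0.77 CPM (log2 fold change -1.52, adjusted p = 0.000107). Tfpi2, an inhibitor of serine proteases in the matrix that starts 758 kb from Peg10, rose from 1.71 and 2.04 CPM to 20.8, 22.9 and 21.7 CPM (log2 fold change 3.53, SE 0.12, adjusted p = 2.83e-08). Between these genes, Col1a2, a collagen I chain named after its values were seen, rose by 0.13 on the log2 scale, which library totals reduced to 0.03 (adjusted p = 0.223).

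Sgce was described beside 15 genes of the sarcoglycan and dystrophin complex. Of the 12 tested, 2 rose, 8 fell and 2 did not pass, with a median log2 fold change of -0.52 against 0 for all genes to 2 decimals. The share called in either direction was 83.3%, against 44.5% of all genes. Dag1, which encodes dystroglycan, fell from 562 and 560.2 CPM to 385, 379 and 403 CPM (log2 fold change -0.53, SE 0.031, adjusted p = 9.3e-07). Dtna and Dtnb, the dystrobrevins, fell by 0.89 and 0.65 on the log2 scale, and the syntrophin Sntb2 fell by 0.89. Sntb1 (-2.33) and the sarcoglycan Sgcd (-1.08) fell as well and are named after their values were seen. Sgcb, the sarcoglycan with 27.5 and 29.2 CPM in the controls and 25.7, 28.4 and 24.4 CPM with TGF-β1, did not pass (log2 fold change -0.12, adjusted p = 0.257), but was called with library totals (-0.22, adjusted p = 0.0493). The 2 that rose, Dmd (0.20) and Lama2 (0.31), were also named afterwards and lost their calls with library totals, with the replicate block and without either control; Dmd also lost its call without TGF-β1 replicate 1. Levels of mesothelial markers fell in the same libraries, as given above, and their part in this list was not tested.

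Mest (ENSMUSG00000051855; chromosome 6, 30723547 to 30748465, plus strand), which encodes an enzyme of the alpha/beta hydrolase fold and marks growing fetal mesoderm, was the scarcest of the 10. Only 9 and 15 counts were seen in the control libraries and 4, 10 and 12 in the TGF-β1 libraries. The groups overlapped and the interval was wide (log2 fold change -0.50, 95% interval -1.83 to 0.82, adjusted p = 0.528). Its exons overlap those of Copg2 on the opposite strand over 912 bp, and Copg2 had 132 times as many counts, so even these counts are uncertain. Copg2 itself, at 35.5 ± 1.26 and 31.9 ± 0.57 CPM, passed by little (log2 fold change -0.16, adjusted p = 0.0489) and lost its call without any 1 of the 5 libraries in turn (adjusted p from 0.0766 to 0.261). Ube2h, a ubiquitin-conjugating enzyme gene 419 kb from Mest, fell by 0.32 on the log2 scale.

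Beyond the 10 genes, 2 lists of other imprinted genes were examined. Of 21 genes listed as paternally expressed, which was not checked in these cells, 18 were tested. Of these, 3 rose, 6 fell and 9 did not pass, with a median log2 fold change of -0.08. The call share was 50%, against 44.5% of all genes. The 3 that rose were Snrpn, Peg12 and Nap1l5. Nap1l5, named after its values were seen, had a mean of 0.0756 ± 0.028 CPM in the controls and 0.427 ± 0.20 CPM with TGF-β1, and lost its call without either control (adjusted p = 0.127 and 0.08) and with the replicate block (adjusted p = 0.0655). Nnat, which encodes a small membrane protein and is named for its values too, fell from 3.34 and 4.73 CPM to 1.39, 1.07 and 1.11 CPM (log2 fold change -1.76, adjusted p = 0.000223). Zrsr1 fell by 0.42 on the log2 scale, but its exons overlap those of Commd1 on the other strand and its value is uncertain. Without control replicate 2, 1 of the list rose and 2 fell.

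Of 25 genes listed as maternally expressed, which was not checked in these cells, 17 were tested. Of these, 4 rose, 6 fell and 7 did not pass, with a median of -0.04. The share called was 58.8%, against 44.5% of all genes. The 4 that rose were Tfpi2, Blcap (0.53), Rian and H13 (0.25), the last named after its values were seen. Blcap, whose intron holds Nnat, thus differed in direction from Nnat. Cdkn1c, a cyclin-dependent kinase inhibitor that limits fetal growth, had counts of 17 and 28 in the control libraries and of 3, 5 and 8 in the TGF-β1 libraries. The groups did not overlap (log2 fold change -2.09, SE 0.54, adjusted p = 0.0113), and without control replicate 2 the call was lost (adjusted p = 0.133). Igf2r, the receptor that clears IGF2, was at 141 and 131 CPM in the controls and at 141, 139.8 and 142 CPM with TGF-β1 and did not pass (log2 fold change 0.05, or -0.05 with library totals, adjusted p = 0.322 and 0.389). Without control replicate 2, 3 of this list fell.

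**Figure D4:**
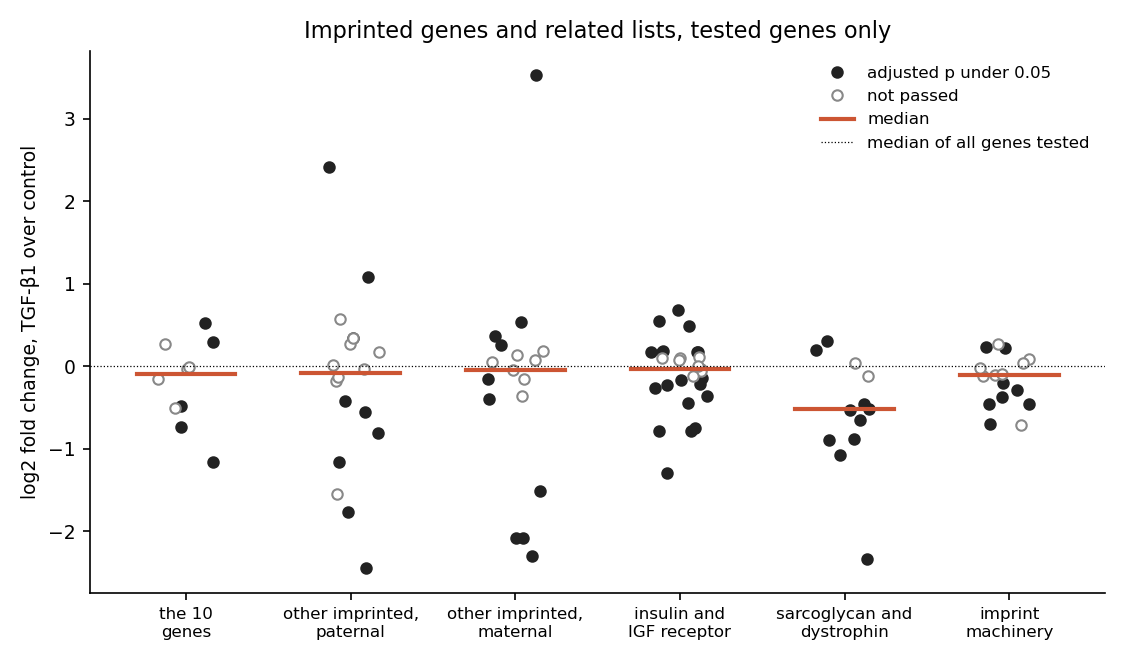
Log2 fold change, TGF-β1 over control, of the tested genes of the 10 and of 5 lists, with filled points for an adjusted p under 0.05, red bars for list medians and a dotted line for the median of all genes. The lists of imprinted genes scatter to both sides of the line with medians of -0.09, -0.08 and -0.04, and the sarcoglycan and dystrophin list lies lowest with a median of -0.52.

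Of the 16 genes of the machinery that keeps imprints or insulates their domains, all were tested, and 2 rose, 6 fell and 8 did not pass. The median log2 fold change was -0.11. The call share was 50%, against 44.5% of all genes, of which 21.3% were higher and 23.2% were lower. Uhrf1, which brings the maintenance methyltransferase to newly copied DNA, fell from 41.3 and 41.7 CPM to 25.8, 25.4 and 25.4 CPM (log2 fold change -0.70, SE 0.054, adjusted p = 6.31e-06). Dnmt1, that methyltransferase, fell by 0.46 on the log2 scale (adjusted p = 6.88e-05), as did Zfp57, the zinc finger protein that guards methylated imprints (adjusted p = 0.000709). Dnmt3a, a methyltransferase that sets new marks, fell from 102 and 97.3 CPM to 80.1, 84.9 and 66.4 CPM (log2 fold change -0.37, adjusted p = 0.00756), and without control replicate 1 its adjusted p was 0.0809. Tet3 (0.22) and Smchd1 (0.23), named after their values were seen, rose, and neither passed with library totals (adjusted p = 0.052 and 0.123). Smchd1 also lost its call without either control (adjusted p = 0.0686 and 0.0982).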

How the data were processed

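Counts per Ensembl gene for 5 libraries, whole and unscaled, were deposited by the authors as 1 table. Per the labels' protocols these were strand-specific mRNA libraries; per the submitters' processing notes STAR 2.5.3a, StringTie 1.3.1c and mm10 were used. How reads were counted, with which strand setting and annotation, is not given in the sources used here. GENCODE M21 (GRCm38, which is mm10) gave symbols for 55154 IDs and not for 181 (at most 0.00374% of a library's counts). Library totals were 34283288 to 43163967.

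Genes kept by filterByExpr (16380) were scaled by TMM. Tests were edgeR's quasi-likelihood F tests with group as the 1 term (two-sided; Benjamini-Hochberg adjustment over all genes; threshold 0.05). The SE is the absolute log2 fold change over the square root of F. Gene pairs with at least 10 counts in every library (4 of 6 pairs) were compared by exact permutation. Lengths are the union of exons. A value is called uncertain where another gene with over 0.1 of its counts overlaps its exons. The model was tested on simulated data with 50 genes changed at each size, far fewer than were called here. It recovered 38% of 1.25-fold, 60% of 1.5-fold, 78% of 2-fold and 92% of 4-fold changes, or 19, 30, 39 and 46 genes. It also called 20 genes that had not been changed, a larger share of its calls than the threshold of 0.05. Statistics ran in edgeR 4.0.16, DESeq2 1.42.0 and limma 3.58.1 under R 4.3.3. Tables and plots used numpy 2.4.6, matplotlib 3.10.9 and pandas 2.3.3 under Python 3.11.15.

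The genes and lists were chosen with earlier results of these data known. Named were the 10 genes, Igf2, Cdkn1c, Igf2r, Rian and the pair genes, up to 4 genes per list by size of change among those that passed with a mean of 5 CPM or more, and the largest such change within 500 kb of each of the 10. Insr, Igf1r, Sgcb, Ikzf1, Begain, Mkrn3, A230057D06Rik and those said so in the text were named after their values were seen. As alternatives, the scaling was changed (library totals, upper quartile, median of ratios), the filter was dropped or set to over 1 CPM in 2 or more libraries, and the test was replaced by limma-voom, DESeq2 or edgeR's glmTreat against 1.5-fold. The replicate number was also added as a block, and each library was left out in turn.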

Additional observations from a re-analysis of the deposited data

How the results depend on the processing

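Peg3, Grb10, Ndn and Meg3 kept their direction and call under every alternative run except the test against 1.5-fold, which Ndn (-0.48) and Meg3 (0.29) did not pass (adjusted p = 1 for both); Plagl1 (0.53) did not pass it either. That test called 563 genes higher and 1223 lower against 3488 and 3799, and none of the 10 genes higher (0). It called 1 gene of the paternal list higher and 1 lower, and 1 of the maternal list higher and 2 lower. Of the insulin list it called 1 higher and 3 lower, and of the sarcoglycan list 0 higher and 4 lower. It called 0 of the machinery in either direction. Library totals called 2325 genes higher and 4921 lower, 3 of the insulin list higher, 0 of the sarcoglycan list and 0 of the machinery higher, called Sgce (-0.25) and Sgcb (-0.22) lower, and turned Igf2r to -0.046 and Insr to -9.1e-05. Deviations of same-numbered libraries of the 2 groups from their group means correlated at 0.0159 and 0.0161. With 2 controls, whose deviations mirror each other, this cannot tell whether same-numbered libraries share an animal or a culture. The replicate block called 3538 genes higher and 3727 lower, and 0 of the sarcoglycan list higher. It called Sgce (-0.18) and turned H19 to 0.27 and Ikzf1 to 0.037. It changed no other call among the 10 genes, and outside them Copg2, Nap1l5, Dmd and Lama2 lost theirs (adjusted p from 0.058 to 0.0966).

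Leaving out 1 library at a time gave 2620 to 3623 genes higher and 2813 to 3881 lower. The 10 genes then had 1 to 2 higher, the paternal list 1 to 3 higher and 2 to 6 lower, the maternal list 3 to 6 lower, the insulin list 5 to 8 higher, the sarcoglycan list 0 to 2 higher and the machinery 1 to 3 higher. Log2 fold changes ran from 0.42 to 0.64 for Plagl1, from -0.24 to -0.052 for Sgce, from 0.039 to 0.53 for Dlk1, from -0.84 to -0.16 for Mest, from -0.23 to 0.26 for H19 (0.22 without control replicate 2) and from -0.083 to 0.074 for Peg10 (0.058 and 0.018 without TGF-β1 replicates 1 and 2), and from -0.13 to 0.055 for Ikzf1. Differences in mean log2 ratio ran from -0.24 to 0.17 for Dlk1 to Meg3 (0.15 without TGF-β1 replicate 2) and from -0.49 to 0.37 for Peg3 to Usp29 (0.03 without TGF-β1 replicate 2). Of 58 other named genes, 18 kept their side of the threshold and their direction under all alternatives. The test against 1.5-fold, which asks for a larger change, took the call from 35 of the 58. DESeq2 left 57 of them on the same side and in the same direction, limma-voom 56 and library totals 49. Where a control is left out, the spread of the single remaining one is taken to be that of the TGF-β1 libraries. The cause of these shifts was not tested. With 2 controls, the 95% intervals of H19, Dlk1 and Mest, which had 4 to 120 counts per library, each hold a 1.5-fold change in either direction.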
